A study of Mus musculus with 8 samples.

Results

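Mitosis and G2/M genes are the 35 protein-coding genes taken here as the machinery of the G2/M transition and of cell division, from the proliferation marker Mki67 to the transcription factor Foxm1. They were chosen by symbol, and each was found in the table of 39017 genes as a single Ensembl gene. All 35 passed the filter on low counts, so all are among the 19494 genes tested. They lie on 16 chromosomes of mm10. In GENCODE M21, for example, Mki67 (ENSMUSG00000031004) spans positions 135689784 to 135716361 of chromosome 7, Top2a (ENSMUSG00000020914) 98992943 to 99024189 of chromosome 11, Cdk1 (ENSMUSG00000019942) 69335146 to 69352938 of chromosome 10 and Ccnb1 (ENSMUSG00000041431) 100778650 to 100786570 of chromosome 13, all on the minus strand.

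RNA was sequenced from tdTomato-labelled cells sorted from the cochlear nucleus, the first auditory relay of the hindbrain, of C57BL/6 mouse embryos at stage E18.5. The 4 mutant libraries came from embryos whose titles add Hoxa2+/fl and Hoxb2fl/fl to Math1::Cre and Rosa tdTomato, and the 4 wild type libraries from embryos with Math1::Cre and Rosa tdTomato alone. Both groups thus carry the Cre driver and the reporter. The design text describes the conditional Hoxa2 allele as homozygous where the titles describe it as heterozygous, and the values below hold for the libraries as labelled. Cre under Math1 control, also called Atoh1, marks cells of the rhombic lip lineage, so deletion is limited to that lineage. Each sample pooled 3 littermate embryos and came from a different mother, and the sex of the embryos is not among the labels. Libraries are named after their column headings, as mutant 1, 2, 3 and 4 and wild type 5, 6, 7 and 8.

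A cell that is about to divide switches on this set of genes together. Cyclin A and cyclin B activate the kinase Cdk1, kinetochore proteins tie chromosomes to the spindle, motor proteins build the spindle, and the anaphase-promoting complex then destroys cyclin B and securin so that the cell can separate its chromosomes. Their transcripts are high in late cell cycle and low in resting cells, so that in bulk RNA their level is widely used to follow how much of a sample is dividing. In the developing hindbrain the Atoh1-expressing progenitors of the rhombic lip give rise to granule cells and to neurons of the cochlear nucleus, which stop dividing as they differentiate.

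Total counts ran from 24789043 to 51118195 per library. Hoxb2 was lower in the mutant, at 5.02 ± 1.49 CPM against 40.1 ± 4.41 CPM in wild type (SD, n = 4 each), with a log2 fold change of -3.00 (adjusted p = 3.76e-05 by edgeR, SE 0.199). CPM here and below is the count scaled to a common library total, after TMM scaling. Hoxa2 averaged 26.7 ± 15.7 CPM in mutant and 43.2 ± 11.0 CPM in wild type (SD, n = 4 each), and its log2 fold change of -0.70 (SE 0.401) did not pass (edgeR adjusted p = 0.506). Atoh1, which rhombic lip progenitors express, was read in all 8 libraries, at 134, 28.5, 51.03 and 32.7 CPM in mutant 1 to 4 and 89.1, 154, 57.5 and 59.3 CPM in wild type 5 to 8. It was highest in mutant 1, wild type 5 and wild type 6, the libraries that were also high for the mitotic genes below.

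None of the 35 mitosis and G2/M genes passed the test between the genotypes, and their levels spread widely between libraries of one genotype. Summed over the 35 genes, the level was 1761, 940.3, 751 and 564 CPM in mutant 1 to 4, against 2409.9, 2371, 640.1 and 935 CPM in wild type 5 to 8. Mutant 1, wild type 5 and wild type 6 were high, the other libraries all lay lower, and the ranges of the genotypes overlapped. The summed level averaged 1004 ± 527 CPM in mutant and 1589 ± 933 CPM in wild type (SD, n = 4 each). Its highest library was 3.12 times its lowest among mutants, or 1.67 times without mutant 1, and 3.77 times among wild types. In bulk RNA fewer dividing cells and less of these transcripts per dividing cell cannot be told apart.

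Nearly the same order of libraries ran through all 35 genes. Mutant 1 was the highest mutant library for 35 of 35 genes, against 26.9% of all genes tested. Mutant 4 was the lowest mutant library for 33 genes, and mutant 3 for the other 2, Mki67 and Prc1. Wild type 5 was the highest wild type library for 19 genes and wild type 6 for 16, and wild type 7 was the lowest for all 35. Mutant 1 above its group together with wild type 5 and wild type 6 above wild type 7 and wild type 8 was found for 35 of 35 members and for 11.8% of all genes tested. Relative to each gene's mean log2 level over 8 libraries, the median member stood at 0.66, -0.22, -0.49 and -0.97 in mutant 1 to 4 and at 1.11, 1.17, -0.93 and -0.30 in wild type 5 to 8. Across genotypes, mutant 1 lay above wild type 7 and wild type 8 for 35 genes, and wild type 7 lay below both mutant 2 and mutant 3 for 29.

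**Figure D1:**
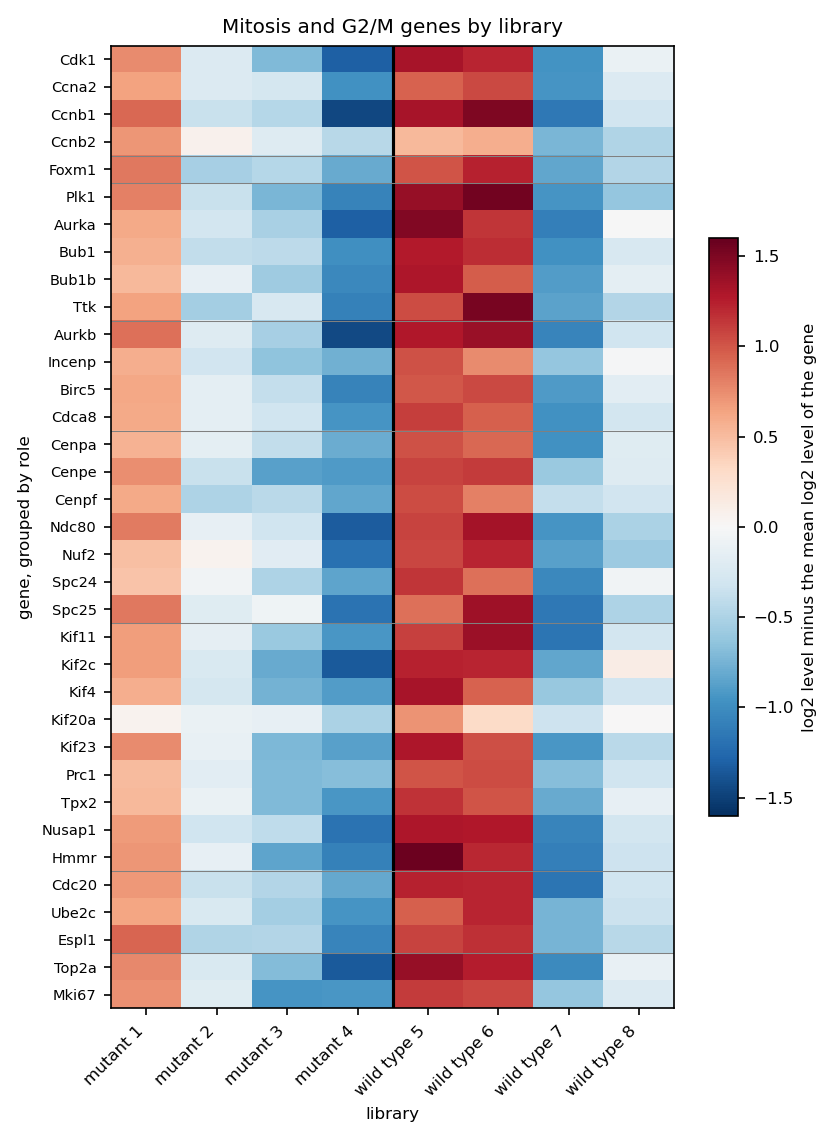
Log2 level of each of the 35 mitosis and G2/M genes (rows, grouped by role) in each library (columns, mutant left of the black line), as the difference from the gene's own mean log2 level. The columns of mutant 1, wild type 5 and wild type 6 are above the mean for all 35 genes, and those of mutant 3, mutant 4 and wild type 7 are below it for all 35.

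The spread between libraries of one genotype was correspondingly wide. The coefficient of variation of a member had a median of 51.6% over the mutant libraries and 61.6% over the wild type libraries, while for all genes tested it was 19.5% over mutant and 16.8% over wild type libraries. It passed 40% for 32 members in mutant and for 34 in wild type. Some other lists described below spread about as widely. The median was 42.0% in mutant and 53.6% in wild type for other mitosis and G2/M genes. It was 53.7% in mutant and 61.6% in wild type for the 5 tested pericyte and meningeal genes, which were read at low levels. Radial glia and astrocyte genes had 66.5% in mutant and 30.7% in wild type. S phase genes spread less, at 26.0% in mutant and 31.0% in wild type. edgeR's biological coefficient of variation, the spread within genotype beyond counting error, had a median of 50.96% over the members, with a range of 21.5% for Kif20a to 64.1% for Ccnb1. Its median was 21.2% over all genes tested and 16.8% over genes in the members' range of average level. Counting error was small beside this: the lowest count of any member, 70 for Spc24 in wild type 7, has a counting error of 11.95%, with a 95% exact interval of 1.57 to 2.54 CPM around 2.01 CPM before scaling. Without mutant 1 the median coefficient of variation over mutants was 27.7%, beside 17.1% for all genes tested. Mutant 1 was the highest mutant library for every member, so this narrower spread is a description and no test.

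**Figure D2:**
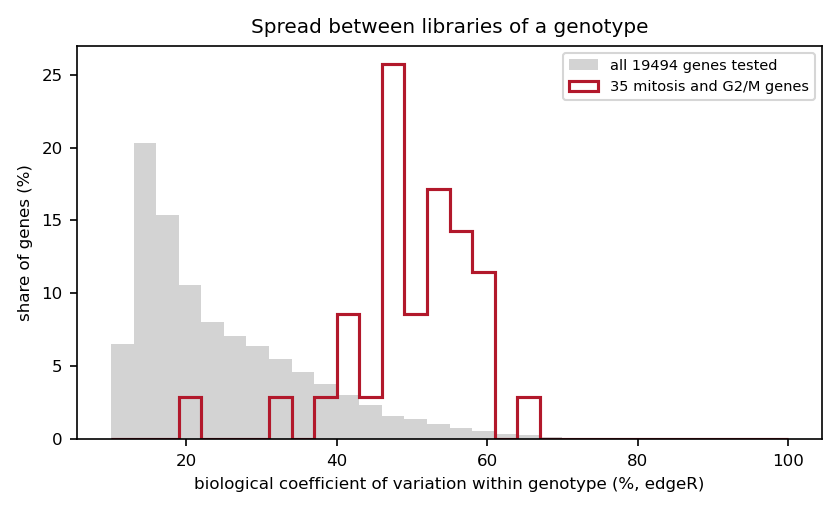
Share of genes (vertical axis, %) by biological coefficient of variation within genotype (horizontal axis, %, edgeR), for the 35 mitosis and G2/M genes (red outline) and for all 19494 genes tested (grey; values beyond the axis are in the last bin). The members' median is 50.96% and that of all genes 21.2%.

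Between genotypes, edgeR's quasi-likelihood test called 0 of the 35 members at an adjusted p below 0.05, where 0.359% of all genes tested were called, 0.144% as higher and 0.215% as lower in mutant. The count at an unadjusted p below 0.05 was 0 as well, where 12.5% of all genes tested had one. DESeq2 and limma-voom also called 0 members, and edgeR's adjusted p ranged from 0.463 to 0.995. No member had mutant and wild type libraries that do not overlap, a separation seen for 6.17% of all genes tested. The log2 fold change was below 0 for 34 of 35 members, beside 10053 of all 19494 genes tested. The members rose and fell together between libraries, so their 35 signs and tests are not independent and largely repeat the same comparison of libraries. Their median was -0.68, with a range of -0.91 for Aurka to 0.01 for Ccnb2, beside a median of -0.01 over all genes tested. The members' median was -1.08 without mutant 1 and -0.40 without wild type 5 or without wild type 6. SEs ran from 0.204 to 0.683. The 95% interval of every member, built with 6 residual degrees of freedom, included 0. These intervals reached as low as -2.47 and as high as 1.00, so differences of that size could not be shown or set aside with these libraries. When mutant 1, wild type 5 and wild type 6 were all left out, the median was 0.00329 and 16 of 35 log2 fold changes were below 0. These 3 libraries were picked because they were highest for these same genes, and leaving out more high wild type than high mutant libraries raises the fold change by construction, so the values without them are a description and no test.

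**Figure D3:**
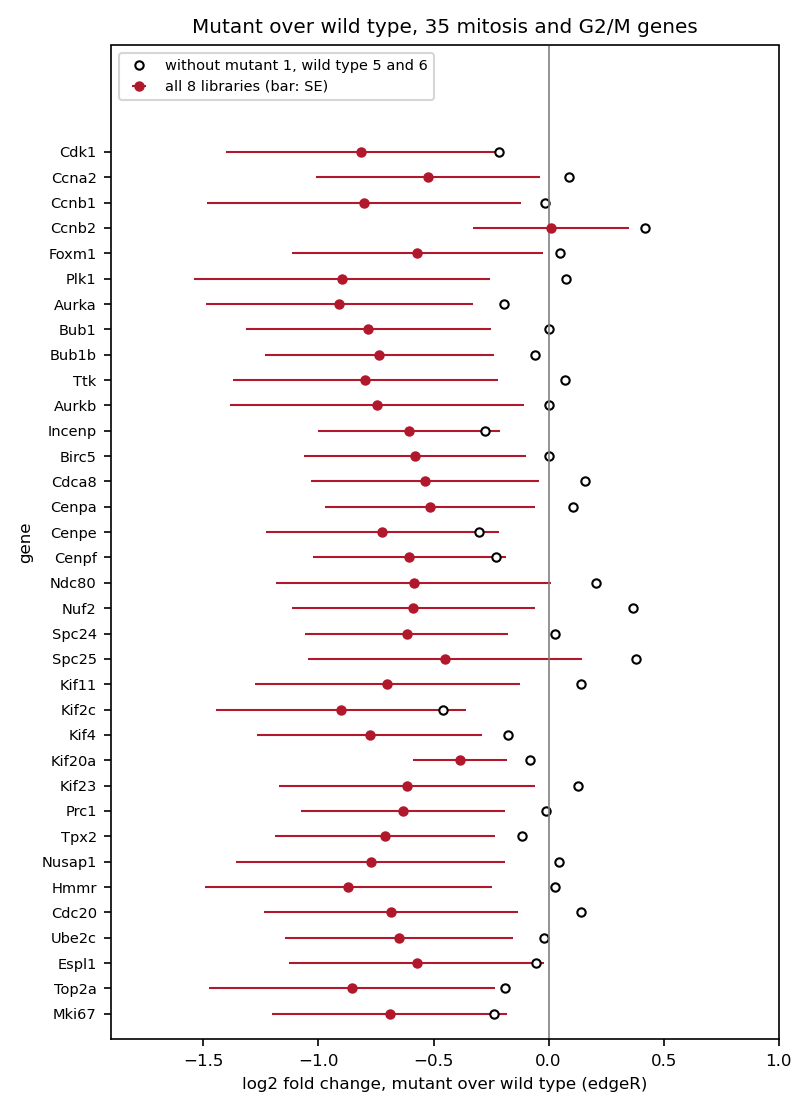
Log2 fold change of mutant over wild type (horizontal axis) for each of the 35 genes (vertical axis, in order of role), over all 8 libraries with its SE as a bar (red), and over the other 5 libraries once mutant 1, wild type 5 and wild type 6 are removed (open). With all libraries 34 points lie below 0 and their median is -0.68. Without the 3 libraries, which were picked for their high level of these genes, the points lie on both sides of 0, with a median of 0.00329.

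The cyclins and Cdk1 start the entry into mitosis. Cdk1, the catalytic subunit that cyclin A and cyclin B switch on, had 40.7, 20.6, 14.8 and 9.72 CPM in mutant 1 to 4, against 60.1, 55.9, 12.4 and 22.4 CPM in wild type 5 to 8. Its log2 fold change was -0.82 (adjusted p = 0.591 by edgeR, SE 0.584). Mutant 1 lay below wild type 5 and wild type 6 and above the other wild type libraries. Ccna2, which encodes cyclin A and acts in S phase as well as in G2, had 150, 82.2, 79.0 and 48.9 CPM in mutant 1 to 4, against 185, 200, 49.9 and 82.4 CPM in wild type 5 to 8. Per kilobase of gene length it was the highest member, at 25.6 CPM per kilobase in mutant and 36.8 in wild type on average, with a log2 fold change of -0.52 (adjusted p = 0.681 by edgeR, SE 0.486). Ccnb1, the main mitotic cyclin, varied most between mutant libraries, at 56.6, 23.2, 21.7 and 10.8 CPM in mutant 1 to 4, against 74.4, 84.0, 13.4 and 24.2 CPM in wild type 5 to 8. The highest mutant library held 5.23 times the lowest, and the highest wild type library 6.25 times the lowest. Its mean of 28.1 ± 19.8 CPM in mutant and 49.0 ± 35.3 CPM in wild type (SD, n = 4 each) gave a log2 fold change of -0.80 (adjusted p = 0.653 by edgeR, SE 0.683).

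Ccnb2, the second B-type cyclin, was the one member with no lower mean in mutant. It had 25.2, 16.2, 13.4 and 11.4 CPM in mutant 1 to 4, against 22.1, 23.2, 9.32 and 11.1 CPM in wild type 5 to 8, with a log2 fold change of 0.01 (adjusted p = 0.995 by edgeR, SE 0.339). Its sign was negative under 6 of the alternatives given in the closing section. The same 3 libraries were high, but the highest exceeded the lowest only by 2.21 times in mutant and 2.49 times in wild type. A pseudogene copy, Ccnb2-ps, was counted separately at 12.5, 11.9, 14.8 and 12.6 CPM in mutant 1 to 4, against 13.6, 12.2, 12.8 and 12.3 CPM in wild type 5 to 8. The copy thus lay at about the same level in all libraries. How the authors' counting divided reads between gene and copy is not given in the sources used here, so the level of Ccnb2 is uncertain. Ccnb1 and Kif4 also have pseudogene copies, Ccnb1-ps at 1.94 to 6.09 CPM in mutant and 2.20 to 9.82 CPM in wild type, and Kif4-ps below 1 CPM in every library.

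Foxm1, the forkhead factor that drives transcription of many of these genes in G2, had 30.2, 11.6, 12.2 and 9.59 CPM in mutant 1 to 4, against 33.7, 39.2, 9.44 and 12.1 CPM in wild type 5 to 8. Mutant 1 held more than any other mutant library by a wide gap, while the other mutants were near wild type 7 and wild type 8. Its log2 fold change was -0.57 (adjusted p = 0.689 by edgeR, SE 0.545).

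The mitotic and checkpoint kinases Plk1, Aurka, Bub1, Bub1b and Ttk had log2 fold changes of -0.91 to -0.74. Plk1, a kinase that acts at centrosomes, kinetochores and the midbody, had 9.69, 4.33, 3.34 and 2.65 CPM in mutant 1 to 4, against 14.6, 16.2, 2.89 and 3.62 CPM in wild type 5 to 8. With 75.5% in wild type it had the largest coefficient of variation of any member, and the mutant value was 64.0%. The genotypes overlapped, since mutant 1 lay above wild type 7 and wild type 8, and the log2 fold change was -0.90 (adjusted p = 0.591 by edgeR, SE 0.643). Aurka, which organises spindle poles, had the largest negative log2 fold change of the 35 at -0.91 (adjusted p = 0.544 by edgeR, SE 0.58). It averaged 8.76 ± 4.86 CPM in mutant and 16.4 ± 10.9 CPM in wild type (SD, n = 4 each). Bub1, Bub1b and Ttk, kinases and a pseudokinase of the spindle assembly checkpoint, averaged 9.53 to 19.3 CPM in mutant and 15.8 to 33.3 CPM in wild type.

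The chromosomal passenger complex joins the kinase Aurkb to Incenp, Birc5 (survivin) and Cdca8 (borealin) and corrects faulty attachments of chromosomes. These 4 genes had log2 fold changes of -0.74 to -0.54, with edgeR adjusted p from 0.55 to 0.679. The highest mutant library held 2.53 times the lowest for Incenp and 5.04 times for Aurkb, and in wild type the 4 genes spanned 3.10 to 5.42 times.

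Of the centromere and kinetochore genes, Cenpa encodes the histone variant of centromeres, Cenpe and Cenpf large kinetochore proteins, and Ndc80, Nuf2, Spc24 and Spc25 the 4 subunits of the Ndc80 complex that binds microtubules. Their log2 fold changes were -0.72 to -0.45, with SEs of 0.418 to 0.597 and edgeR adjusted p from 0.578 to 0.779. The subunits of the Ndc80 complex were read at unequal levels. Per kilobase of gene length Spc25 averaged 8.19 CPM in mutant and 11.2 CPM in wild type, and Spc24 2.73 CPM in mutant and 4.17 CPM in wild type. Between libraries all 4 followed the common order, with a highest mutant library at 2.47 times the lowest for Spc24 and 4.48 times for Ndc80.

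Motors and spindle proteins made up 9 members. Kif11 is the motor that pushes spindle poles apart, Kif2c depolymerises microtubules, Kif4, Kif20a, Kif23 and Prc1 act at the central spindle and in cytokinesis, and Tpx2, Nusap1 and Hmmr bind spindle microtubules. Their log2 fold changes were -0.90 to -0.38. Kif2c, the gene with the second lowest level per kilobase, had 14.3, 7.64, 5.15 and 3.54 CPM in mutant 1 to 4, against 21.1, 21.0, 5.06 and 9.79 CPM in wild type 5 to 8. The groups overlapped, with a log2 fold change of -0.90 (adjusted p = 0.526 by edgeR, SE 0.543). Kif4 had 27.0, 14.9, 10.7 and 9.78 CPM in mutant 1 to 4, against 45.2, 34.9, 11.9 and 14.7 CPM in wild type 5 to 8. Mutant 1 again lay among the wild type values, and the log2 fold change was -0.78 (adjusted p = 0.538 by edgeR, SE 0.488). Hmmr, with 20.2, 11.3, 6.90 and 5.81 CPM in mutant 1 to 4, against 36.5, 28.3, 5.78 and 9.82 CPM in wild type 5 to 8, had the widest span of any member in wild type, 6.33 times, and a log2 fold change of -0.87 (adjusted p = 0.592 by edgeR, SE 0.624).

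Kif20a, a motor of the central spindle, had both the smallest spread and the smallest p of the 35. It had 37.9, 33.9, 33.4 and 25.7 CPM in mutant 1 to 4, against 59.96, 45.05, 29.0 and 36.8 CPM in wild type 5 to 8. Its mean of 32.7 ± 5.11 CPM in mutant and 42.7 ± 13.2 CPM in wild type (SD, n = 4 each) gave a log2 fold change of -0.38 with an SE of 0.204. Its unadjusted p in the edgeR fit was 0.0843 and its adjusted p 0.463. Of its exonic bases, 29.3% are also exonic in Cdc23, which lies on the opposite strand, and whether the counting used strand is not stated. Cdc23, a subunit of the anaphase-promoting complex, had 57.8, 60.3, 47.2 and 55.4 CPM in mutant 1 to 4, against 82.2, 64.9, 59.1 and 65.8 CPM in wild type 5 to 8. Its highest library held 1.28 times the lowest in mutant and 1.39 times in wild type, a flatter profile than that of any member. If it did not, reads of the pair cannot be told apart where they overlap. In all, 9 members share exonic bases with another tested gene: Ccna2, Cdc20, Kif4, Kif20a, Nusap1, Prc1, Ube2c, Cdca8 and Foxm1, of which Kif20a shares the largest part.

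Cdc20 and Ube2c, an activator and the ubiquitin-conjugating enzyme of the anaphase-promoting complex, and Espl1, the separase that cuts cohesin, carry the cell out of metaphase. Ube2c had 47.9, 26.2, 21.3 and 16.1 CPM in mutant 1 to 4, against 60.2, 71.7, 18.505 and 24.4 CPM in wild type 5 to 8, with a log2 fold change of -0.65 (adjusted p = 0.616 by edgeR, SE 0.497). Espl1, the lowest member per kilobase, had 20.4, 7.72, 7.79 and 5.16 CPM in mutant 1 to 4, against 22.7, 24.1, 6.41 and 7.92 CPM in wild type 5 to 8, with a log2 fold change of -0.57 (adjusted p = 0.693 by edgeR, SE 0.556). For Espl1 mutant 1 nearly reached the high wild type libraries, and the other 3 mutants lay about the low ones. Cdc20 averaged 7.01 ± 3.58 CPM in mutant and 11.3 ± 7.58 CPM in wild type (SD, n = 4 each).

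Top2a, the topoisomerase that untangles sister chromatids, and Mki67, which coats mitotic chromosomes, are the usual markers of dividing cells. Mki67 had 360.3, 190, 112 and 114 CPM in mutant 1 to 4, against 471, 454, 141 and 187 CPM in wild type 5 to 8. Top2a had 148, 73.1, 53.7 and 34.2 CPM in mutant 1 to 4, against 227, 208, 42.8 and 79.7 CPM in wild type 5 to 8. Mutant 1 exceeded wild type 7 and wild type 8 for both genes. Their log2 fold changes were -0.69 (adjusted p = 0.604 by edgeR, SE 0.509) for Mki67 and -0.85 (adjusted p = 0.600 by edgeR, SE 0.621) for Top2a.

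Exact two-sided permutation tests on the level of each member gave p of 0.171 to 0.857, where the smallest p that 4 against 4 libraries allow is 0.0286. Once the level of the other 34 members in a library was taken out, the members varied much less. The range of log2 level over the 8 libraries had a median of 2.23, and relative to the mean log2 level of the other members it had a median of 0.55. The range narrowed for 34 of 35 genes. Kif20a was the exception, with a relative range of 1.40, and Ccnb2 followed at 1.22. The others had relative ranges up to 0.86, as for Ccnb1, so that in these libraries the members went up and down nearly in one ratio.

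The G2/M programme is known to be written in the promoters of its genes. Many carry a cell cycle genes homology region (CHR), bound by Lin54 within the DREAM and MuvB complexes, and upstream of it CCAAT boxes bound by NF-Y. Promoter windows of 300 bases, from 250 before to 50 after the start in RefSeq (GRCm38.p6), were available for 28 of the 35 genes, with 29 windows because Prc1 has a pair. The CHR letters TTTGAA, on either strand, stood in 79.3% of these windows and in 17.9% of all 32851 windows of that length. Most lay close to the start: 72.4% of member windows and 4.94% of all windows held a match in the last 100 bases. CCAAT, on either strand, stood in 82.8% of member windows and 37.4% of all windows, and both motifs stood in 72.4% of member windows and in 6.95% of all windows. Members were not alone in this. Among other mitosis and G2/M genes CHR letters stood in 48.5%, CCAAT in 74.2% and both in 36.4% of 66 windows. CCAAT was also common in lists with few windows, in 7 of 9 for radial glia and astrocytes, 4 of 5 for erythroid cells and 9 of 15 for postmitotic neurons. A CHR match shared a base with a CCAAT match in 1 case, in Cdca8. E2F letters, searched as TTTCGCGC, TTTGGCGC and TTTCCCGC on either strand, were in 1 member window, that of Cdk1, or 3.45%, against 1.84% of all windows and 35.1% of the windows of S phase genes. The windows of Birc5, Nuf2 and Nusap1 held neither TTTGAA nor CCAAT, which says only that these letters are not in those windows.

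To show this arrangement, the 120 bases before the RefSeq start are printed for 8 members of different roles, each on the strand of its gene. Capitals mark CHR letters (TTTGAA or its reverse complement TTCAAA) and CCAAT boxes (CCAAT or its reverse complement ATTGG). Cdk1, Cdc20, Top2a, Kif11, Ube2c and Espl1 show CCAAT boxes with a CHR near the right end. Mki67 shows a pair of CHR matches further from the start. Ccnb1 shows CCAAT boxes without TTTGAA. No other CHR letters were searched, so its stretch is not shown to lack a CHR. The matches are descriptions of letters and no binding was measured here.
Cdk1, GRCm38.p6 chr10:69352913-69353032, minus strand: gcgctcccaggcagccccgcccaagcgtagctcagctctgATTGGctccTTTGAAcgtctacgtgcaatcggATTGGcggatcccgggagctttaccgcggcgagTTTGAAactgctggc
Cdc20, GRCm38.p6 chr4:118437344-118437463, minus strand: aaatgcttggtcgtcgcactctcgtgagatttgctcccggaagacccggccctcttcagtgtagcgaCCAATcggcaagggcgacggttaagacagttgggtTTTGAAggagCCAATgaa
Top2a, GRCm38.p6 chr11:99024190-99024309, minus strand: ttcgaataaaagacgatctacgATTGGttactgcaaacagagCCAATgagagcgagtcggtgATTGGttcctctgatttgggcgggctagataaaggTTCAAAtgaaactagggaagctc
Kif11, GRCm38.p6 chr19:37376262-37376381, plus strand: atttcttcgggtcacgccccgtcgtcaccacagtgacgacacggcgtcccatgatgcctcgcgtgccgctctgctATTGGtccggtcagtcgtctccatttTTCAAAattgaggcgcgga
Ube2c, GRCm38.p6 chr2:164769809-164769928, plus strand: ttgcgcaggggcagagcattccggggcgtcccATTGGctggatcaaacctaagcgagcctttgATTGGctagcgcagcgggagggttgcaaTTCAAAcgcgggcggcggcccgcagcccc
Espl1, GRCm38.p6 chr15:102296173-102296292, plus strand: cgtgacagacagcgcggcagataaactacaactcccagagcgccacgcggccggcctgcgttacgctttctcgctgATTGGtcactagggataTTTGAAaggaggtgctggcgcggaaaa
Mki67, GRCm38.p6 chr7:135716380-135716499, minus strand: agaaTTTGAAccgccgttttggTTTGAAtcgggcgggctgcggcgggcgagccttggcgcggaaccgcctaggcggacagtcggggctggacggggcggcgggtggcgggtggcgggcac
Ccnb1, GRCm38.p6 chr13:100786487-100786606, minus strand: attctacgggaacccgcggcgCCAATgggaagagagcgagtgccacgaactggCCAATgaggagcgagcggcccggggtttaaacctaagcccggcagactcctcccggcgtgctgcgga

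**Figure D4:**
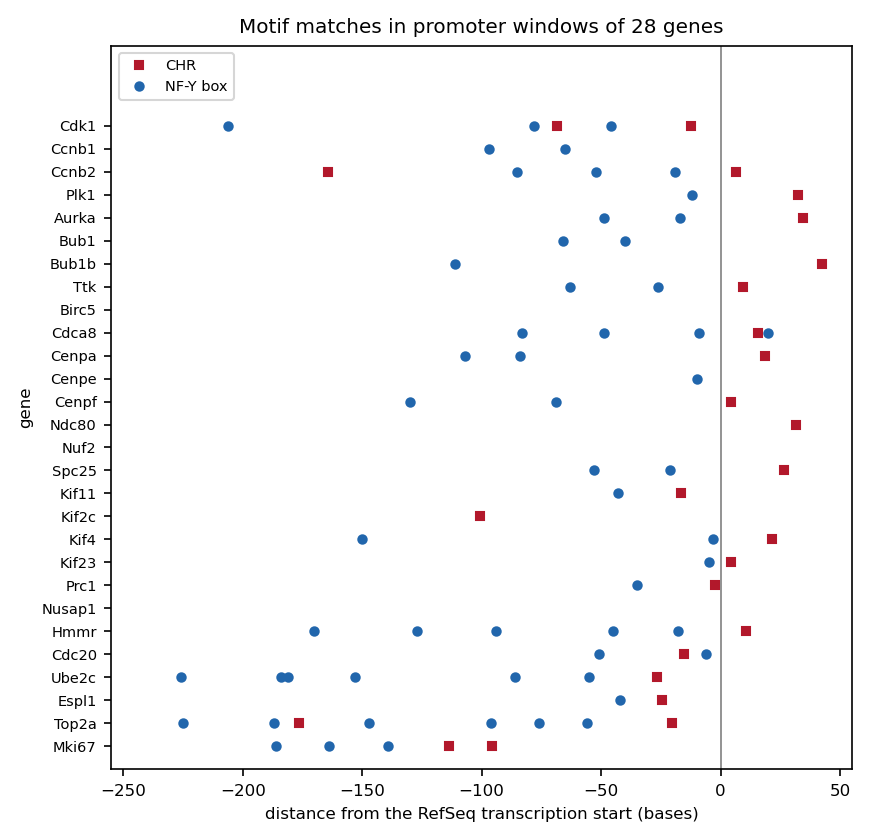
Distance of each CHR match (red squares) and each CCAAT match (blue circles, NF-Y box) from the RefSeq start in bases (horizontal axis) for the 28 genes with a window (vertical axis; for Prc1 the first of its windows). In 20 of the 28 genes a CHR match lies within 50 bases of the start, mostly with CCAAT boxes to its left.

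Other genes of the cell cycle showed the members' order of libraries to differing degrees, in 91.7% of other mitosis and G2/M genes, 82.5% of S phase genes, 63.6% of regulators and 46.2% of genes for D-type cyclins, their kinases and inhibitors. That order was found for 11.8% of all genes tested, and the regulators include the member Foxm1. In these 4 lists DESeq2 and limma-voom called 0 genes, and E2f3 was called by limma-voom once libraries were weighted by quality. With those weights limma-voom called 1.20% of all genes tested. Of 73 other mitosis and G2/M genes listed, 72 were tested, 0 passed edgeR's test and 2 had an unadjusted p below 0.05, which 12.5% of all genes tested had. Their median log2 fold change was -0.59, and 66 of 72 had mutant 1 highest of its group and wild type 5 and wild type 6 above the other wild types. The smallest p were those of Wee1, the kinase that restrains Cdk1, at -0.82 (adjusted p = 0.359 by edgeR, SE 0.338), and of the kinetochore gene Dsn1 at -0.71 (adjusted p = 0.386 by edgeR, SE 0.315). Of 40 DNA replication and S phase genes 0 passed edgeR's test and 9 had an unadjusted p below 0.05 (12.5% of all genes tested), with a median of -0.47 and the library order in 33. Mcm2 and Mcm4, subunits of the replicative helicase, had -0.71 (adjusted p = 0.208 by edgeR, SE 0.206) and -0.48 (adjusted p = 0.24 by edgeR, SE 0.151). The summed level of S phase genes was 1330.1, 967, 988 and 800.2 CPM in mutant 1 to 4, against 1585, 1719.6, 903 and 1224 CPM in wild type 5 to 8, a span of 1.66 times in mutant and 1.90 times in wild type.

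Regulators of the programme spread unevenly between libraries. Their coefficient of variation had a median of 16.6% over mutant and 16.1% over wild type libraries, but reached 65.7% in mutant and 63.6% in wild type. The wild type maximum is that of Foxm1, itself a member. The 22 genes of this list, which include Foxm1, E2F factors, pocket proteins, NF-Y subunits and MuvB subunits, summed to 789 to 912 CPM in mutant and 850.0 to 1042 CPM in wild type. edgeR's test called 0 of them, 4 had an unadjusted p below 0.05 (12.5% of all genes tested), the median log2 fold change was -0.25, and 14 showed the library order. E2f3, an activating E2F, had 33.0, 26.5, 26.3 and 28.2 CPM in mutant 1 to 4, against 40.2, 33.2, 42.9 and 42.9 CPM in wild type 5 to 8. Those ranges did not overlap, but the log2 fold change of -0.48 did not pass (adjusted p = 0.147 by edgeR, SE 0.125). Tfdp1, the dimer partner of E2F factors, had -0.41 (adjusted p = 0.241 by edgeR, SE 0.131). Of 15 genes for D-type cyclins, their kinases and CDK inhibitors 13 were tested, 0 passed edgeR's test and 3 had an unadjusted p below 0.05, beside the same 12.5%. The inhibitor Cdkn1c had 0.55 (adjusted p = 0.35 by edgeR, SE 0.226) and Ccnd2, a cyclin of G1, -0.61 (adjusted p = 0.38 by edgeR, SE 0.262).

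Many genes of postmitotic neurons were lowest where the mitotic genes were highest. Mutant 1 lowest of the mutants together with wild type 5 and wild type 6 below the other wild types was found for 9 of 14 such genes and for 13.6% of all genes tested. The 14 postmitotic neuron genes summed to 5945, 8344, 8554 and 8137 CPM in mutant 1 to 4, against 5799.6, 6081, 8123 and 7876 CPM in wild type 5 to 8. Mutant 1, wild type 5 and wild type 6 were the lowest of these sums, and 0 of 14 genes showed the order of the mitotic genes. The edgeR test called 0, with 3 at an unadjusted p below 0.05 (12.5% of all genes tested). By limma-voom 0 were called, and DESeq2 called Nefm, beside 1.38% of all genes it tested. Nefm, a neurofilament gene, had -1.07 (adjusted p = 0.146 by edgeR, SE 0.263) and Rbfox3, a marker of mature neurons, 0.39 (adjusted p = 0.255 by edgeR, SE 0.126). The 12 genes of granule cell and rhombic lip progenitors summed to 5057 to 6462 CPM in mutant and 4912 to 5448 CPM in wild type. Most of this sum was Zic1, averaging 2986 CPM, and Pax6, averaging 996 CPM. By edgeR, DESeq2 and limma-voom 0 were called, with 2 at an unadjusted p below 0.05 by edgeR (12.5% of all genes tested). The order of the mitotic genes was found for 6 of 12, Atoh1 and Mycn among them, beside 11.8% of all genes tested. Insm1, a factor of neurogenic divisions, had -0.80 (adjusted p = 0.292 by edgeR, SE 0.275) and Zic1 0.38 (adjusted p = 0.382 by edgeR, SE 0.167).

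**Figure D5:**
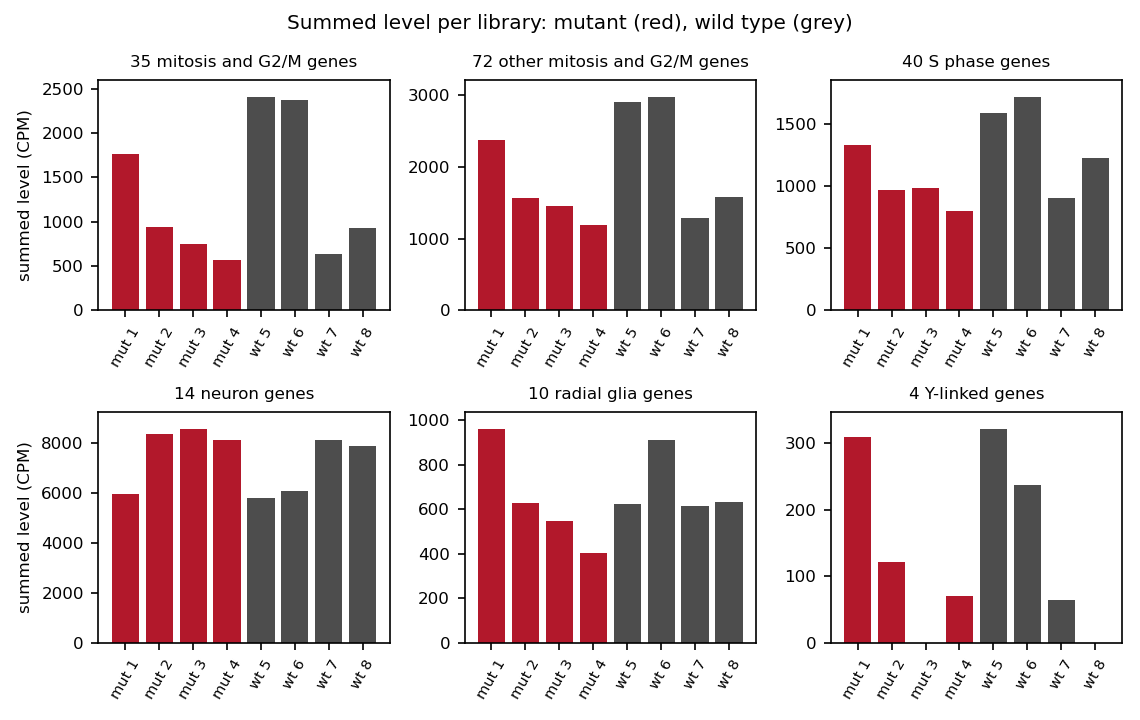
Summed level in CPM (vertical axes, from 0) in each library (horizontal axes; mut is mutant, red; wt is wild type, grey) for 6 sets of genes. Mutant 1, wild type 5 and wild type 6 are the highest libraries for the mitosis, G2/M and S phase genes and for the Y-linked genes, and the lowest for the neuron genes.

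Genes of other cell types that the sort could hold were read beside the members, and their part in the order of libraries was not tested. Radial glia and astrocyte genes, led by Vim and Fabp7, summed to 960, 627, 546 and 402 CPM in mutant 1 to 4, against 624, 912, 613 and 633 CPM in wild type 5 to 8, so wild type 5 was not high there, and 3 of 10 genes showed the order of the mitotic genes. Choroid plexus and ependyma genes summed to 465 to 626 CPM in mutant and 505 to 826 CPM in wild type, nearly all of it Otx2, which averaged 558 CPM beside 6.89 CPM for Folr1. Oligodendrocyte progenitor genes, led by Pdgfra and Olig2, summed to 42.3 to 54.3 CPM in mutant and 48.1 to 79.7 CPM in wild type. Inhibitory neuron genes, led by Lhx1 and Slc6a5, summed to 80.8, 116, 77.6 and 109.6 CPM in mutant 1 to 4, against 65.9, 92.4, 82.2 and 91.4 CPM in wild type 5 to 8. Wild type 6 was the highest wild type and mutant 3 the lowest mutant there, so the sum did not follow that of the postmitotic neuron genes. Gene by gene, however, mutant 1 was the lowest mutant library for 6 of 7 inhibitory neuron genes, and wild type 5 the lowest wild type for 6. The order described for the postmitotic neuron genes was found for 3 of 7, beside 13.6% of all genes tested. Microglia genes, led by Csf1r and P2ry12, summed to 11.4 to 17.3 CPM in mutant and 15.1 to 22.8 CPM in wild type. Endothelial genes (Kdr, Pecam1) summed to 6.02 to 14.1 CPM in mutant and 6.93 to 20.8 CPM in wild type, and pericyte and meningeal genes (Rgs5, Pdgfrb) to 6.29 to 13.8 CPM in mutant and 6.45 to 21.0 CPM in wild type. Erythroid genes (Alas2, Hbb-bs) summed to 5.54 to 6.97 CPM in mutant and 4.81 to 11.3 CPM in wild type, and Hba-a1 and Hba-a2 had counts of 0 in all 8 libraries. How the counting treated reads shared by like genes is not given, so these counts need not mean absent RNA. The order of the mitotic genes was found for 3 of 5 tested pericyte and meningeal genes and 1 of 5 choroid plexus genes. It was found for 1 of 6 oligodendrocyte progenitor, 1 of 6 endothelial, 0 of 6 microglia, 0 of 3 erythroid and 0 of 7 inhibitory neuron genes. For all genes tested the share was 11.8%. Of these 8 lists only C1qa, a complement gene of microglia, passed edgeR's test, with a log2 fold change of -3.45 (adjusted p = 0.0115 by edgeR, SE 0.5). That test called 0.359% of all genes tested. C1qa was read at a low level: P2ry12, the second highest microglia gene, averaged 1.44 CPM, and C1qa no more than that. DESeq2 also called Cx3cr1 and P2ry12, limma-voom called 0, and limma-voom with quality weights called C1qa, Hbb-bs and Lhx1. Of all the genes each tested, DESeq2 called 1.38% and limma-voom with quality weights 1.20%.

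Transcripts from the sex chromosomes also followed the libraries that stood apart. The Y-linked genes Kdm5d, Ddx3y, Eif2s3y and Uty summed to 310.3, 122, 0.097 and 69.9 CPM in mutant 1 to 4, against 322, 238, 65.1 and 0.43 CPM in wild type 5 to 8. Mutant 1, wild type 5 and wild type 6 were highest, while mutant 3 and wild type 8, near 0 for these genes, had more of the mitotic genes than mutant 4 and wild type 7. Xist, transcribed from the inactive X chromosome, had 130, 2297, 2706 and 2594 CPM in mutant 1 to 4, against 278, 832, 3425 and 3544 CPM in wild type 5 to 8. Each library pools 3 littermates, so these values describe the pool. With the log2 summed level of the Y-linked genes as a covariate, a fit chosen after seeing the data, edgeR called 0 of 35 members and the median log2 fold change was -0.54. On the log2 scale this covariate mainly sets mutant 3 and wild type 8, near 0, apart from the rest. It takes little account of the difference between mutant 1, wild type 5 and wild type 6 and the others, so -0.54 is not a value adjusted for sex. The part of the embryos' sex in the level of the mitotic genes was not tested. The share of counts in mitochondrial genes was 11.2% to 13.7% in mutant and 10.4% to 13.4% in wild type.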

How the data were processed

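The authors deposited raw counts of reads for each Ensembl gene in 8 libraries, with a gene length; per the labels' protocols, 30000 sorted cells per sample gave 2 ng of RNA, TotalScript libraries with 14 PCR cycles, and 3 HiSeq2500 lanes. The submitters' processing notes name mm10 as the build and bcl2fastq 1.8.4. The aligner, the read counter, the annotation release and the strand setting are not given in the sources used here. Gene symbols matched 37607 of 39017 genes, and 1 blank row was dropped. Column headings give the group and a running number, not the replicate number of the titles, so columns were assigned to groups only.

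Counts were tested in R 4.3.3 with edgeR 4.0.16 (filterByExpr, TMM, robust quasi-likelihood fit on genotype, Benjamini-Hochberg adjustment over all 19494 genes tested, threshold 0.05). SEs are approximate, from the F statistic. Alternatives used DESeq2 1.42.0, limma 3.58.1, other scalings and filters, and libraries left out. The test was tested on simulated data. The interval around a count covers counting error only, since reads amplified by PCR with no molecular identifier are not independent, and intervals of log2 fold changes rest on the spread between libraries. The latter use 6 residual degrees of freedom, fewer than edgeR's test, so they are wider than its p-values imply.

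The 35 genes and the other lists were chosen with earlier results of these data known, so their direction is no independent evidence. Of the listed symbols, Knstrm and Ahsp were not matched to the table. Per-library values are given for the genes with the 3 smallest p in each direction (only Ccnb2 is positive), the 4 highest and 2 lowest per kilobase, the 3 most variable, and Mki67, Top2a, Cdk1, Ccnb1, Plk1 and Foxm1. Elsewhere the 2 smallest p of a pathway list, or the 2 highest genes of a marker list, are named. Overlaps of genes come from GENCODE M21.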

Additional observations from a re-analysis of the deposited data

Results flagged for a closer look

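In 5 of 100 groups of 4 libraries examined, 1 library stood apart, with a gap to its neighbour, as a share of the group's range, above Dixon's 95% critical value. Chance flags about 1 in 20 such groups. For Foxm1 in mutants the gap below mutant 1 was 0.873 of the range. For the summed level of postmitotic neuron genes in mutants, mutant 1 lay apart below the others, with a gap of 0.840 of the range. The summed level of radial glia and astrocyte genes put wild type 6 apart from the other wild types at 0.934. The progenitor list put wild type 7 apart, above the others, at 0.870. The choroid plexus and ependyma list put mutant 3 apart, above the other mutants, at 0.859.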

How the results depend on the processing

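edgeR called 70 of the 19494 genes tested. The count was 214 with no filter on low counts and 480 with DESeq2, each over 34724 genes. With limma-voom and sample quality weights it was 233, and with mutant 1, wild type 5 and wild type 6 all left out 171. When 1 library was left out the count ran from 26 to 544 (544 without mutant 1, 26 without mutant 4). It was 53 to 77 under the other alternatives. Members called stayed at 0 in every alternative run; without mutant 1, 6 of 35 members had an unadjusted p below 0.05, as had 19.2% of all genes tested there, and without wild type 7 it was 8 of 35 beside 13.9%. The members' median log2 fold change was -0.40 to -1.08 with 1 library left out and 0.00329 without the 3 libraries, which were picked for their level of these genes. Without those 3 the sign turned for Ccna2 (0.0876), Aurkb (0.00253), Bub1 (0.00329), Plk1 (0.0761), Cdc20 (0.14), Cenpa (0.10), Kif11 (0.14), Kif23 (0.13), Birc5 (0.00391), Nusap1 (0.0459), Ndc80 (0.21), Nuf2 (0.37), Spc24 (0.0289), Spc25 (0.38), Ttk (0.0708), Hmmr (0.0274), Cdca8 (0.16) and Foxm1 (0.0493). With 1 library left out Spc25 ranged over -0.87 to 0.0200 (highest without wild type 6) and Ccnb2 over -0.26 to 0.22. Ccnb2 was negative with upper quartile factors (-0.00381), library size only (-0.0536), a filter of 1 CPM or more in 4 libraries (-0.00121), and without mutant 1 (-0.26), wild type 7 (-0.18) or wild type 8 (-0.13). The cause of these turns was not tested. The highest over lowest summed level was 3.34 for mutant and 3.93 for wild type without TMM scaling, 3.08 and 3.87 per kilobase, and 1.67 to 3.12 and 2.58 to 3.77 with 1 library left out. Without mutant 1 the members' median coefficient of variation over mutants was 27.7%, beside 17.1% for all genes tested.

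No paired analysis was possible because the column headings carry a running number and not the replicate numbers of the sample titles. The lowest count of a member was 70, so the spread between 4 libraries per genotype, rather than depth, sets the SEs.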

Other observations

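Genes beyond the lists that, as the mitotic genes, are high in mutant 1, wild type 5 and wild type 6 were looked for after the values were seen. The following is thus a description with no test. Among genes averaging 4 or more on the log2 CPM scale, with mutant 1 at least 1.5 times above each other mutant and wild type 5 and wild type 6 at least 1.5 times above both wild type 7 and wild type 8, 88 genes were found, of which 58 were in the lists above. Among the other genes were Esco2, which establishes cohesion of sister chromatids, at 29.8, 13.7, 13.7 and 8.62 CPM in mutant 1 to 4 and 38.8, 46.4, 8.09 and 16.5 CPM in wild type 5 to 8, and the spindle gene Spag5 at 23.3, 11.8, 8.18 and 6.89 CPM in mutant 1 to 4 and 32.0, 29.9, 6.75 and 11.3 CPM in wild type 5 to 8. Ticrr, which starts DNA replication, had 24.98, 10.8, 7.63 and 8.21 CPM in mutant 1 to 4 and 30.4, 28.2, 10.6 and 13.4 CPM in wild type 5 to 8. The set also held Pax3, a factor of dorsal neural progenitors, at 101, 50.7, 50.2 and 44.97 CPM in mutant 1 to 4 and 152, 125, 58.3 and 67.1 CPM in wild type 5 to 8. Notch1, Gli3, Tead2, Pcdh18 and Mn1 belonged to the set too, so it was not made up of cell cycle genes alone. The 4 Y-linked genes were in it as well.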
